A study of Homo sapiens with 4 samples.

Results

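The genes of MHC class I antigen presentation described here are 9 of the 20510 in the deposited table: the heavy chains HLA-B, HLA-C and HLA-E, the light chain gene B2M, the transporter genes TAP1 and TAP2, TAPBP, and the immunoproteasome subunit genes PSMB8 and PSMB9. They were taken by gene symbol as a list of pathway genes, and the list was chosen by a measured value, the lower FPKM of TAPBP in the knockdown. The TAPBP difference is therefore a description with no test, and nothing is read from how many of the 9 members were lower. All 9 members reached an FPKM of 1 in 2 or more libraries and so entered the test, as did 13924 genes in all.

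RNA came from K1 cells, an established line labelled as thyroid cancer, grown in RPMI 1640 with fetal bovine serum. One group carried a control hairpin (shCtrl, 2 libraries), the other a hairpin that lowers TBX3, a T-box transcription factor (shTBX3, genotype TBX3 knockdown, 2 libraries). Every library came from this line and no group was without a hairpin. The labels do not say how the hairpins were delivered, how many were used, or whether a group was a clone or a pool. Values are FPKM, mapped fragments scaled by library size and by transcript length, so that levels can be set against each other between genes.

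MHC class I molecules show peptides from inside the cell to cytotoxic T cells. The proteasome cuts proteins into peptides, the TAP1 and TAP2 transporter carries these into the endoplasmic reticulum, and tapasin, the product of TAPBP, holds an empty heavy chain and its B2M partner beside the transporter until a suitable peptide is bound. Interferon raises most of these genes, and under interferon the subunits encoded by PSMB8 and PSMB9 replace the standard catalytic subunits of the proteasome.

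In the GENCODE annotation of GRCh37, the build the submitters' processing notes name as hg19, 8 of the 9 genes lie on chromosome 6. HLA-E spans 30457286 to 30461971 on the plus strand, HLA-C 31236526 to 31239907 and HLA-B 31321649 to 31334844, both on the minus strand. TAP2 (32789610 to 32806516, minus), PSMB8 (32808494 to 32812456, minus), TAP1 (32812986 to 32821593, minus) and PSMB9 (32811913 to 32827628, plus) form a cluster with overlapping or adjoining spans. TAPBP spans 33267471 to 33282061 on the minus strand, away from that cluster. B2M lies on chromosome 15, at 45003556 to 45011049 on the plus strand.

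Promoter letters were compared because the members are known as interferon targets. The windows were RefSeq's, from 250 bases before to 50 bases after each annotated start (GRCh38.p14 table). Of the 9 members 8 were matched, and HLA-E, for which no window was found, was not examined. Here and below a member counts when any of its windows holds a word, while percentages are of single windows. A gene such as TAP1 has more than 1 window, so these counts and percentages are not like shares. The core of the interferon-stimulated response element, GAAANNGAAA on either strand (TTTCNNTTTC when read on the other), was found in windows of 5 of these 8 members and in 3.57% of all 35116 windows. The 30 bases around it are shown in the direction of each gene, with the matched letters in capitals and the position found by exact match on GRCh37; for PSMB8 the window is that of 1 of its 2 RefSeq starts.
TAPBP, chr6:33281853-33281882, minus strand: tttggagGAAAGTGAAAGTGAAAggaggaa
TAP1, chr6:32821593-32821622, minus strand: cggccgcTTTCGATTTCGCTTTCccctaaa
TAP2, chr6:32806555-32806584, minus strand: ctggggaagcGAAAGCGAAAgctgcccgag
PSMB8, chr6:32811809-32811838, minus strand: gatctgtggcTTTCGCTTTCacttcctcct
B2M, chr15:45003564-45003593, plus strand: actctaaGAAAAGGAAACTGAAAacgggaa
In TAPBP, TAP1 and B2M the core occurs in 2 overlapping copies, and in TAPBP the stretch starts at −27 from the RefSeq start. The windows of HLA-B and HLA-C hold a form shorter by 1 base, GAANNGAAA, which also occurs in PSMB8 and TAP2 and in 7.66% of all windows; it is shown for these neighbouring heavy chains because their stretches are nearly alike.
HLA-B, chr6:31325092-31325121, minus strand: ctcccctgagTTTCACTTCttctcccaact
HLA-C, chr6:31240001-31240030, minus strand: ctcccctgagTTTCACTTCtcccaacctgc

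A kB-type word, GGGNNTTNCC on either strand, was found in TAPBP, HLA-B, TAP1 and B2M and in 5.68% of all windows. It is shown for TAPBP and HLA-B, with the matched letters in capitals.
TAPBP, chr6:33281892-33281921, minus strand: taaccagagcGGGGATTTCCaccgcccctc
HLA-B, chr6:31325114-31325143, minus strand: gcgcagcgttGGGGATTCCCcactcccctg
The gamma-activated word TTCNNNGAA was found in PSMB8 and TAP1 (7.66% of all windows), TGACGC in HLA-B, HLA-C and TAP2 (9.14%), and CCAAT in B2M, HLA-B, HLA-C, PSMB9 and TAP1 (34.6%). The T-box word GGTGTGA was found in 0 of the 8 members and in 3.45% of all windows. These matches describe letters in a short window, and do not show binding or its absence.

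The steps in the FPKM of microRNA genes correspond to between 8520000 and 8560000 fragments per library. TBX3, the target, was at 48.94 and 54.77 FPKM in shCtrl against 27.81 and 36.99 in shTBX3, a mean ratio of 0.625 without overlap (limma adjusted p = 0.428). Limma called 25 of 13924 genes at an adjusted p under 0.05 (0.180%), of which 15 were lower in shTBX3 (0.108%). At an unadjusted p under 0.05, 4.65% of genes were lower and 2.03% higher. The knockdown libraries were both below the controls in 19.7% of genes and both above them in 14.8%. Of 10 thyroid follicular markers, 6 were below an FPKM of 1 in every library, TG, TSHR, NKX2-1 and FOXE1 among them, and the summed level of the 10 was between 8.73 and 9.12. Of 10 colon epithelial markers, 4 were also below an FPKM of 1 in every library. The summed level of these 10 was between 198 and 262. Most of it was CDX2, at 126.94 and 147.75 in shCtrl against 116.78 and 131.83 in shTBX3. The defining thyroid markers were thus absent or low in these libraries, and some intestinal ones, CDX2 above all, were high. Among these colon markers 5 of the 6 tested were lower in shTBX3 and PHGR1 was called (12.43 and 13.45 against 0.83 and 1.09, limma adjusted p = 0.00779), and their part in the class I values was not tested. In bulk RNA, fewer cells of a type and less RNA per cell cannot be told apart. Nothing in the labels says that replicates were separate cultures, so the tests measure only the spread between these libraries.

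TAPBP, which encodes tapasin, fell in shTBX3 and had the lowest ratio of the 9 members. Its FPKM was 115.37 and 113.78 in shCtrl, against 53.00 and 54.23 in shTBX3. The pairs of replicates were nearly identical and the groups lay far apart. The means were 115 ± 1.12 and 53.6 ± 0.870 (SD, n = 2 each), a 2.14-fold lower level, and the limma log2 fold change was −1.08 ± 0.11 (SE). It was 1 of the 15 genes that limma called lower (adjusted p = 0.0439), which is the value that chose the list. The call was lost when any of the 4 libraries was left out, with adjusted p-values from 0.0582 to 0.127 at log2 fold changes from −1.10 to −1.07. With the transcript length of 3450 bases, TAPBP rested on about 3410 and 3360 fragments in shCtrl against 1560 and 1590 in shTBX3, a counting error of at most 2.5% per library. Of all 13924 tested genes 155 had a ratio as low as that of TAPBP or lower, and of the 1547 with a mean FPKM of at least 50, 7 did, itself included in both; this rank rests on the value that chose the list.

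**Figure D1:**
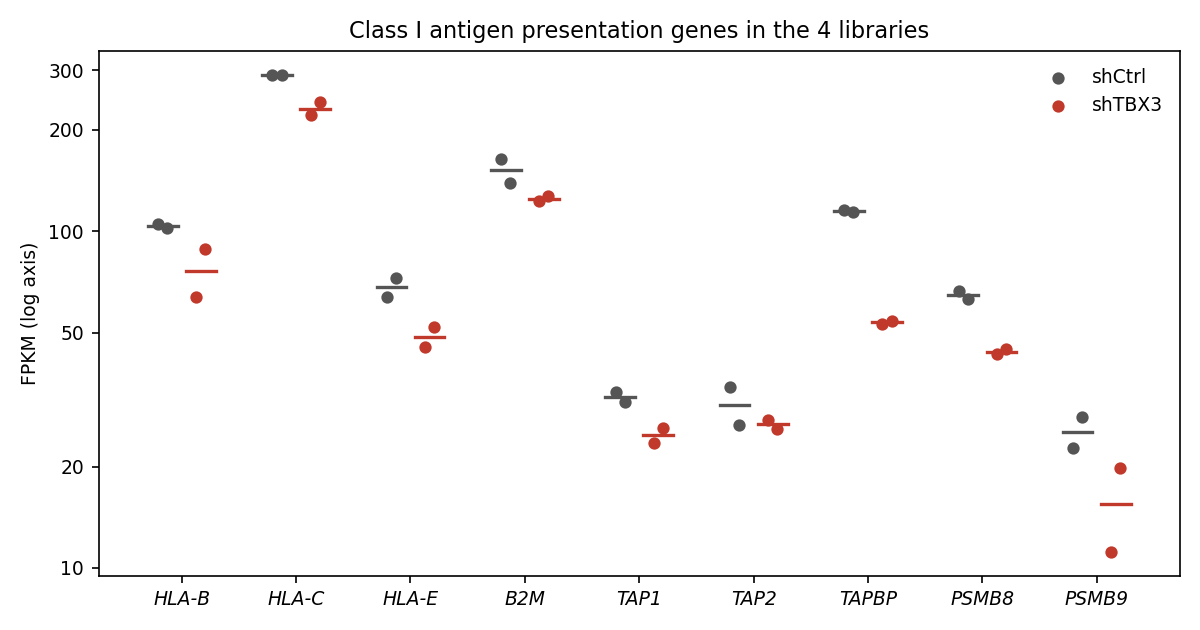
FPKM on a log axis of the 9 class I genes with controls (2 libraries) in grey and the knockdown (2 libraries) in red; each point is a library and each bar a mean. TAPBP lies at 115.37 and 113.78 in shCtrl against 53.00 and 54.23 in shTBX3, and TAP2 is the member whose groups overlap.

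The transporter genes did not pass the test. TAP1, which with TAP2 forms the ATP-driven peptide pump, was at 33.21 and 31.12 in shCtrl against 23.51 and 26.06 in shTBX3. Both shTBX3 values were below both shCtrl values, and the mean ratio was 0.771 (log2 fold change −0.36 ± 0.13, limma adjusted p = 0.658). TAP2 was at 34.58 and 26.56 in shCtrl against 27.58 and 25.87 in shTBX3. The TAP2 groups overlapped, because shCtrl replicate 2 lay below shTBX3 replicate 1 (log2 fold change −0.18 ± 0.16, limma adjusted p = 0.931). Without shCtrl replicate 1 the TAP2 log2 fold change was 0.01, and without shCtrl replicate 2 it was −0.36. In the annotation, 577 of the 2685 exon bases of TAP1 are shared with PSMB8-AS1, an antisense transcript on the opposite strand. The strandedness of the libraries is not given in the sources used here, so fragments of TAP1 and PSMB8-AS1 cannot be told apart over those bases. PSMB8-AS1 itself was at 20.07 and 19.52 in shCtrl against 12.72 and 14.45 in shTBX3 (log2 fold change −0.51 ± 0.13, limma adjusted p = 0.455).

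Within each library, TAPBP stood at 3.47 and 3.66 times TAP1 in shCtrl against 2.25 and 2.08 times in shTBX3. Against TAP2 the ratio was 3.34 and 4.28 in shCtrl against 1.92 and 2.10 in shTBX3. These ratios did not overlap between groups, and were lower in both shTBX3 libraries. They contain TAPBP, which chose the list, and carry no test.

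Both immunoproteasome genes stood lower in shTBX3 without overlap, where 19.7% of all tested genes were wholly lower. PSMB8, which encodes the inducible subunit of chymotrypsin-like activity (LMP7), was at 66.42 and 62.99 in shCtrl against 43.11 and 44.71 in shTBX3. Replicates were close in both groups, with means of 64.7 ± 2.43 and 43.9 ± 1.13 (SD, n = 2 each). The PSMB8 ratio was 0.679 (log2 fold change −0.55 ± 0.12), and its limma adjusted p of 0.299 was the smallest among the 8 members other than TAPBP. PSMB9, which encodes the subunit LMP2, was at 22.65 and 28.07 in shCtrl against 11.17 and 19.85 in shTBX3. The shTBX3 libraries of PSMB9 differed 1.78-fold from each other, the widest replicate gap among the members (log2 fold change −0.72 ± 0.27, limma adjusted p = 0.684). PSMB9 is also the member with the fewest fragments, about 197 and 244 in shCtrl against 97 and 172 in shTBX3, with counting errors between 6.4% and 10.0%. Without shTBX3 replicate 1 its log2 fold change was −0.33, and without shTBX3 replicate 2 it was −1.11.

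The subunits that PSMB8, PSMB9 and PSMB10 replace gave a reference within each library. PSMB5 was at 109.01 and 98.65 in shCtrl against 109.06 and 93.87 in shTBX3, with a log2 fold change of −0.04 ± 0.13 (limma adjusted p = 0.991). PSMB6 was at 107.96 and 116.55 against 102.18 and 111.86, and PSMB7 at 185.87 and 169.62 against 193.35 and 184.00. The groups overlapped for all 3 of these constitutive genes, and with 1 library left out their log2 fold changes ran from −0.14 to 0.07 for PSMB5, −0.13 to −0.00 for PSMB6 and 0.02 to 0.15 for PSMB7. Per length, PSMB8 stood at 0.609 and 0.639 of PSMB5 in shCtrl against 0.395 and 0.476 in shTBX3. PSMB9 stood at 0.210 and 0.241 of PSMB6 in shCtrl against 0.109 and 0.177 in shTBX3. PSMB10, the third inducible subunit (MECL-1), which was not among the members, stood at 0.190 and 0.239 of PSMB7 in shCtrl against 0.144 and 0.155 in shTBX3. All 3 ratios of an inducible to a constitutive subunit were lower in both shTBX3 libraries than in both shCtrl libraries. These ratios are descriptions without a share over other gene pairs, and no test was run on them.

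**Figure D2:**
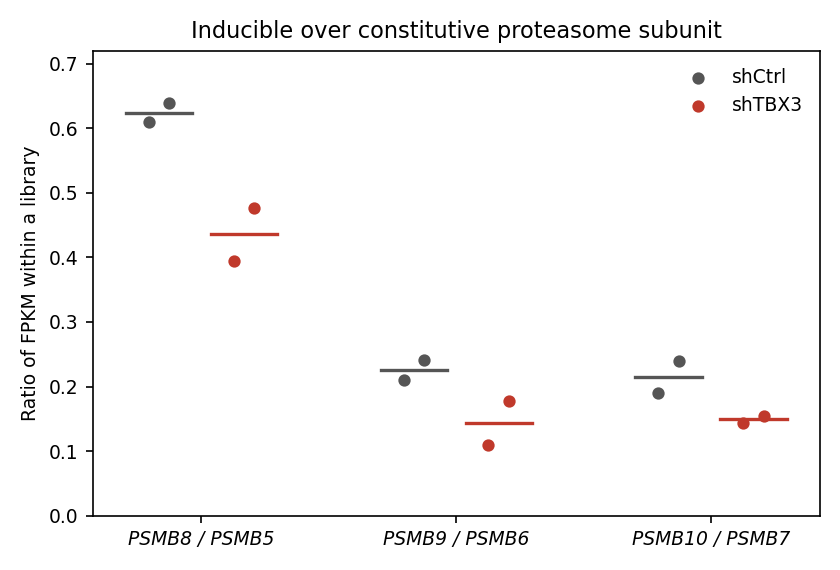
Ratio of FPKM within a library for 3 pairs of an inducible and a constitutive proteasome subunit, with controls (2 libraries) in grey and the knockdown (2 libraries) in red; each point is a library, each bar a mean, and the axis starts at 0. PSMB8 over PSMB5 is 0.609 and 0.639 in shCtrl against 0.395 and 0.476 in shTBX3.

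HLA-C and B2M were the most abundant members, and no heavy chain gene passed the test. HLA-C, a classical heavy chain that is also a main ligand of inhibitory receptors on natural killer cells, was at 291.31 and 291.63 in shCtrl against 220.72 and 241.58 in shTBX3. The groups did not overlap, and the shCtrl values differed by under 1 unit (log2 fold change −0.33 ± 0.12, limma adjusted p = 0.650). HLA-B, the other classical heavy chain in the list, was at 105.34 and 102.43 in shCtrl against 63.58 and 88.32 in shTBX3. Its shTBX3 libraries differed 1.39-fold from each other (log2 fold change −0.47 ± 0.18, limma adjusted p = 0.699), and without shTBX3 replicate 1 its log2 fold change was −0.23. HLA-E, a non-classical heavy chain that shows leader peptides of other class I chains to natural killer cells, was at 63.71 and 72.83 in shCtrl against 45.19 and 51.96 in shTBX3. Replicates of HLA-E differed 1.14-fold in shCtrl and 1.15-fold in shTBX3, and the groups did not overlap (log2 fold change −0.48 ± 0.14, limma adjusted p = 0.516).

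Heavy chain genes resemble each other in sequence and are among the most variable human genes, which bears on how fragments are assigned. Of the 50-base words of the reference transcript, 2.6% of those of HLA-B, 6.8% of those of HLA-C and 4.8% of those of HLA-E also occur in the transcript of another class I heavy chain gene. How fragments were split among the heavy chains was not measured, so their values are uncertain to an extent not known here, and the alleles of this line were not analysed here.

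B2M, the light chain that every class I heavy chain pairs with, was at 164.14 and 138.73 in shCtrl against 122.67 and 127.09 in shTBX3. The groups did not overlap, but the shCtrl libraries differed 1.18-fold (log2 fold change −0.27 ± 0.13, limma adjusted p = 0.817). Without shCtrl replicate 1 the B2M log2 fold change was −0.15. Per length, the level of B2M was below that of HLA-C in every library. The summed FPKM of HLA-B, HLA-C and HLA-E was 2.80 and 3.37 times that of B2M in shCtrl against 2.69 and 3.0 times in shTBX3. These ratios overlapped between groups.

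By FPKM in shCtrl the order of the members was HLA-C, B2M, TAPBP, HLA-B, HLA-E, PSMB8, TAP1, TAP2 and PSMB9. Their means ran from 291 to 25.4, and the libraries of HLA-E overlapped those of PSMB8, those of TAP1 overlapped those of TAP2, and those of TAP2 overlapped those of PSMB9. In shTBX3 the order was HLA-C, B2M, HLA-B, TAPBP, HLA-E, PSMB8, TAP2, TAP1 and PSMB9, with means from 231 to 15.5. TAPBP stood above HLA-B in both shCtrl libraries and below it in both shTBX3 libraries. This change of place contains the TAPBP value that chose the list, and carries no test. TAP1 and TAP2 also changed places, but their values overlapped in both groups. Against all tested genes, the mean level of HLA-C lay at the 98.4 percentile, that of TAPBP at 93.9 and that of PSMB9 at 71.6.

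All 9 members had a lower mean in shTBX3, with ratios from 0.468 for TAPBP to 0.874 for TAP2 and a median log2 fold change of −0.47, against −0.01 over all tested genes. The groups did not overlap for 8 of the 9, where 19.7% of all tested genes were wholly lower. Limma called 1 of the 9, TAPBP, where 0.108% of all genes were called lower. At an unadjusted p under 0.05, 6 of the other 8 were lower, beside 4.65% of all tested genes. Because the list was chosen with this contrast known, these counts are descriptions. TAPBP aside, log2 fold changes ran from −0.72 to −0.18 with SEs from 0.12 to 0.27. A p that misses the threshold does not show that a gene did not differ.

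The rest of the pathway was read from lists of genes by role. Over all tested genes 53.1% were lower in shTBX3, the share to set beside the counts of lower and higher genes here and below. Of 14 other class I and class I-like heavy chain genes, 11 were tested, 9 lower and 2 higher, with a median log2 fold change of −0.15 and 0 called by limma (3 lower and 0 higher at an unadjusted p under 0.05). HLA-F, a non-classical heavy chain, had the largest difference, at 15.76 and 18.66 in shCtrl against 11.30 and 10.04 in shTBX3 (log2 fold change −0.64 ± 0.15, limma adjusted p = 0.365). MICB, a stress ligand of the receptor NKG2D that binds no peptide, was at 8.96 and 9.11 in shCtrl against 11.33 and 10.19 in shTBX3 (limma adjusted p = 0.874).

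Of 19 loading chaperones, trimming enzymes and the tapasin relative TAPBPL, 9 were lower and 10 higher, with a median of 0.02 and 0 called by limma (1 lower and 0 higher unadjusted). TAPBPL, which encodes TAPBPR, a second peptide editor outside the loading complex, was at 11.56 and 9.85 in shCtrl against 8.51 and 6.65 in shTBX3 (log2 fold change −0.45 ± 0.17, limma adjusted p = 0.689). The partners of tapasin in the loading complex did not pass the test either. CALR, the lectin chaperone calreticulin, was at 653.66 and 486.04 against 596.16 and 521.12, with overlap. PDIA3, the disulfide isomerase ERp57 that is bound to tapasin, was at 126.49 and 139.80 in shCtrl against 152.88 and 148.98 in shTBX3, both shTBX3 values above both shCtrl values (log2 fold change 0.18 ± 0.12, limma adjusted p = 0.898). CANX, which holds new heavy chains, and ERAP1, which trims peptides in the endoplasmic reticulum, had log2 fold changes of 0.02 and −0.05. With 1 library left out, PDIA3 ran from 0.11 to 0.25, while CALR, CANX and ERAP1 changed sign.

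Of 4 other inducible proteasome genes, 3 were lower and 1 higher, with 0 called by limma (1 lower unadjusted). PSMB10 was at 35.34 and 40.60 in shCtrl against 27.78 and 28.58 in shTBX3 (log2 fold change −0.41 ± 0.13, limma adjusted p = 0.581), while POMP, the assembly factor, overlapped at 80.43 and 59.62 against 75.80 and 66.06. Of the 5 constitutive subunits and activators, 2 were lower and 3 higher with a median of 0.07 and 0 called (0 unadjusted). PSME4, an activator cap, was highest in difference at 18.27 and 18.24 against 20.17 and 21.50 (limma adjusted p = 0.909).

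Of 29 transcription regulators of class I genes, 20 were lower and 9 higher, with a median of −0.13 and 0 called by limma (4 lower and 0 higher unadjusted). In 13 of the 29 both shTBX3 values were below both shCtrl values, beside 19.7% of all tested genes. NLRC5, the transactivator that works on class I promoters, was at 7.13 and 7.17 in shCtrl against 6.09 and 5.38 in shTBX3 (log2 fold change −0.28 ± 0.14, limma adjusted p = 0.839). IRF1, which binds response elements of this kind, was at 20.53 and 18.35 against 16.18 and 17.91. RELB, an NF-kB subunit, had the largest fall among those with a mean FPKM of at least 5. It was at 26.12 and 19.94 against 18.01 and 14.99 (log2 fold change −0.45 ± 0.18, limma adjusted p = 0.721). The lowest log2 fold change of the 29 was −0.80, in a gene below that level, and their smallest limma adjusted p was 0.473. ATF1 had the largest opposite value, 0.15. With 1 library left out, RELB ran from −0.64 (without shCtrl replicate 2) to −0.26 (without shCtrl replicate 1), IRF1 from −0.26 to −0.10 and ATF1 from 0.06 to 0.25. Of 14 interferon receptor and kinase genes, 11 were tested, 8 lower and 3 higher with 0 called by limma (1 lower unadjusted). IFNGR1, the ligand-binding chain of the interferon gamma receptor, was at 79.58 and 84.63 in shCtrl against 60.75 and 67.81 in shTBX3 (log2 fold change −0.35 ± 0.13, limma adjusted p = 0.659).

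**Figure D3:**
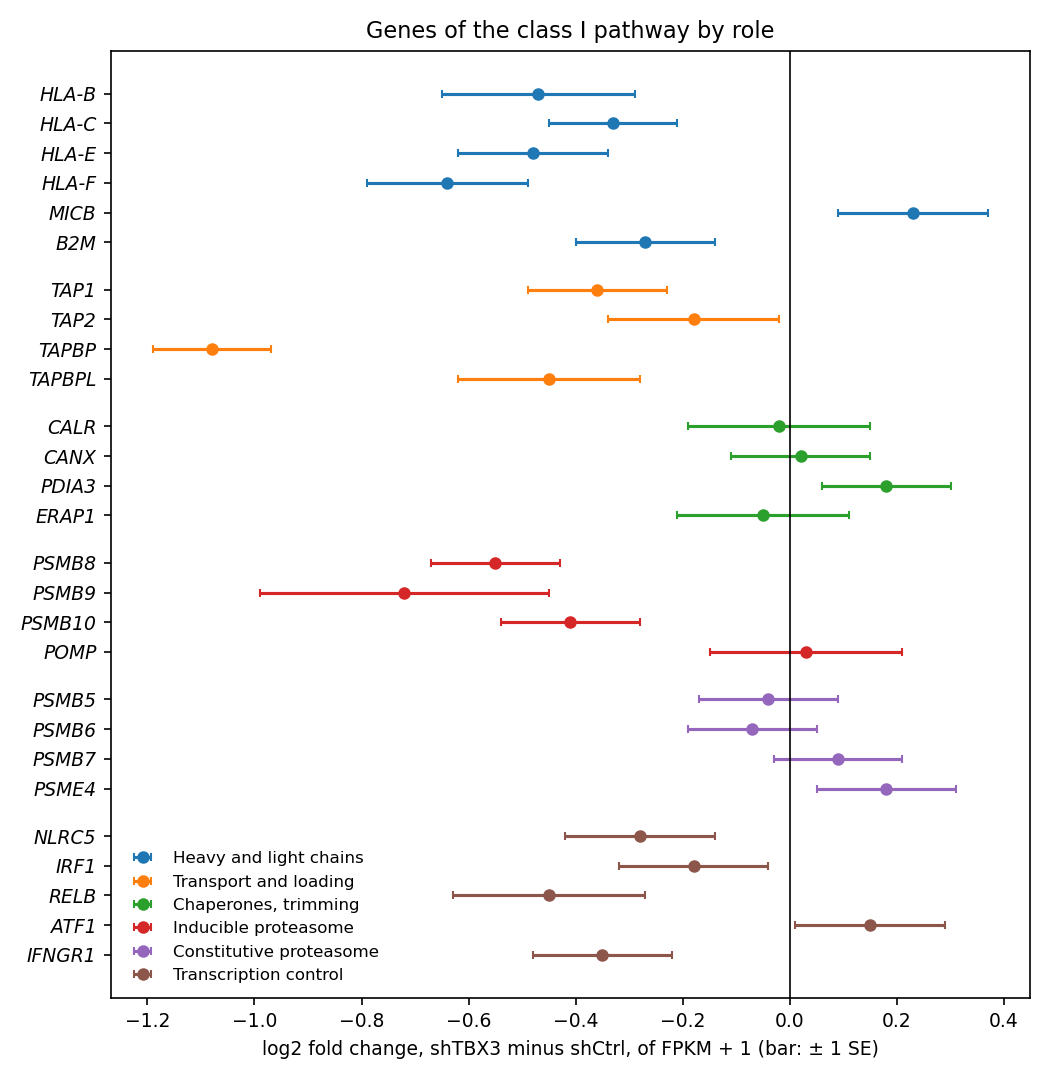
Log2 fold change (shTBX3 minus shCtrl, on the log2(FPKM + 1) scale) of selected class I genes grouped by role. Points are fitted values and bars are ± 1 SE, with 0 marked. HLA-F, MICB, PSMB10, POMP, PSME4, RELB, ATF1 and IFNGR1 are shown as the largest rise or fall of their list with a mean FPKM of at least 5. IFNGR1, a receptor gene, is drawn with transcription control. TAPBP is at −1.08, the inducible subunits PSMB8, PSMB9 and PSMB10 lie between −0.72 and −0.41, and the constitutive PSMB5, PSMB6 and PSMB7 lie between −0.07 and 0.09.

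Other sets related to presentation were mixed. Of 15 class II presentation genes 5 were tested, all lower with 0 called by limma (1 unadjusted), and 7 were below 1 in every library. HLA-DRA, HLA-DRB1 and CD74 were at 0.23 FPKM or below in each library, so the defining class II genes were hardly expressed. IFI30, a lysosomal reductase, was at 73.17 and 68.46 against 64.88 and 58.05 (log2 fold change −0.20). The lowest log2 fold change of the 5 was −0.54, in a gene with a mean FPKM below 5. Of 16 ligands for natural killer and T cell receptors 10 were tested, 1 lower and 9 higher, with 0 called by limma (0 unadjusted). In 4 of the 10 both shTBX3 values were above both shCtrl values, beside 14.8% of all tested genes. ULBP3, another NKG2D ligand, had the largest rise among those with a mean FPKM of at least 5. It was at 7.76 and 7.68 in shCtrl against 10.10 and 9.46 in shTBX3 (log2 fold change 0.31 ± 0.13, limma adjusted p = 0.776). The highest log2 fold change of the 10 was 0.61, in a gene below that level. NECTIN2 was the lower gene, at −0.13. Of 16 genes for class I turnover 15 were tested, 12 lower and 3 higher, with 0 called by limma (0 unadjusted). SPPL3, an intramembrane protease, had the largest lower value among them, at 15.85 and 18.87 against 11.24 and 14.47 (limma adjusted p = 0.759), and MARCH9, a ubiquitin ligase of surface class I, the largest higher value, 0.26. With 1 library left out, MARCH9 ran from 0.06 (without shTBX3 replicate 2) to 0.46 (without shTBX3 replicate 1), SPPL3 from −0.58 to −0.24, NECTIN2 from −0.22 to −0.04 and IFI30 from −0.28 to −0.12.

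Markers of other cells were low. Of 18 leukocyte markers 10 were in the table and 7 of those were below an FPKM of 1 in every library. PTPRC, the pan-leukocyte marker CD45, was at 1.14 and 1.69 in shCtrl against 1.28 and 1.55 in shTBX3. The summed leukocyte level was between 26.2 and 27.1 in shCtrl and 25.1 in both shTBX3 libraries, and most of it was LYZ, which epithelial cells also make. CD68, a lysosomal macrophage marker, was at 7.17 and 8.24 against 5.85 and 5.30 (limma adjusted p = 0.682). The 5 fibroblast and endothelial markers in the table were all below 1, and their sum was at most 1.39 in any library.

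Genes around the members on chromosome 6 did not pass the test. Of 19 genes beside TAPBP, 18 were tested, 15 lower and 3 higher, where 53.1% of all tested genes were lower. The median log2 fold change of the 18 was −0.08, with 0 called by limma (0 unadjusted). RGL2, whose annotated start lies 15.3 kb from that of TAPBP, was the lowest of those with a mean FPKM of at least 5, at 14.53 and 24.43 in shCtrl against 12.00 and 17.00 in shTBX3, with overlap (limma adjusted p = 0.915). CUTA was the highest, at 56.94 and 69.59 against 75.22 and 72.47 (limma adjusted p = 0.880). ZBTB22, whose start is the nearest of the 18 at 3.66 kb, was at 2.47 and 3.70 in shCtrl against 2.14 and 2.81 in shTBX3. Its groups overlapped (log2 fold change −0.22 ± 0.22, limma adjusted p = 0.933). DAXX, whose start lies 8.73 kb away, was at 41.01 and 40.94 against 38.41 and 38.78. The log2 fold changes of the 18 neighbours ran from −0.38 to 0.23, beside −1.08 for TAPBP, a description with no test since TAPBP was chosen for its value. With 1 library left out, RGL2 ran from −0.73 (without shCtrl replicate 1) to −0.02 (without shCtrl replicate 2), and CUTA from 0.08 to 0.37 over the same libraries. Among 58 tested genes between and around the HLA and TAP clusters, members left out, 34 were lower and 24 higher, with a median of −0.03 and 0 called by limma (2 lower unadjusted). The extremes with a mean FPKM of at least 5 were PSMB8-AS1, at −0.51, and POU5F1, at 0.24.

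**Figure D4:**
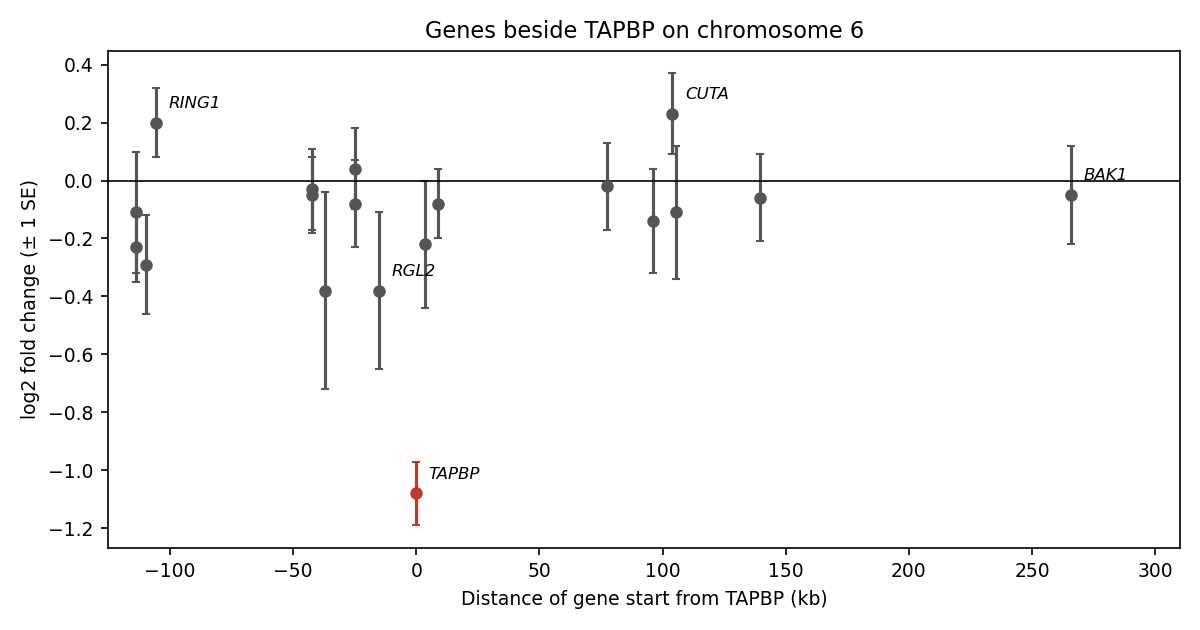
Log2 fold change (points, with ± 1 SE) of TAPBP (red) and the 18 tested genes beside it (grey) against the distance of each gene's start from that of TAPBP in kb. TAPBP lies at −1.08, while its neighbours lie between −0.38 and 0.23.

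By the distance between log2(FPKM + 1) values centred over the 4 libraries, the 5 tested genes most like TAPBP, among 9307 others with a mean FPKM of at least 5, were VGLL4, WBP1L, ERO1A, PIAS4 and LRRC47. VGLL4, a cofactor of TEAD transcription factors, was closest (distance 0.0522), at 16.80 and 17.00 in shCtrl against 7.69 and 7.71 in shTBX3. ERO1A, an oxidase of the endoplasmic reticulum, was at 34.90 and 30.05 against 14.55 and 15.61 (distance 0.144). By this measure any gene with a like fold and close replicates lies near TAPBP. Among the other members, PSMB8 was the closest at rank 126 (distance 0.534), HLA-E was at rank 209 and TAP2 at rank 1815.

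The 3' untranslated region of TAPBP also holds a word that an earlier reading of these same data had linked to lower genes, GTCGTTA, so its presence is not independent of the values. It is shown here with its flanks, the word in capitals, starting at base 1813 of 2066 in the GENCODE canonical transcript.
TAPBP: tcgtgtgagtcGTCGTTAaatgcctgtct
Of 11101 tested genes with an annotated 3' untranslated region of at least 50 bases, 1.07% hold it, and 1 of the 9 members does. Of the 5 genes most like TAPBP, LRRC47 holds it too. The related word TGTCGTT was in 2.84% of these regions, in 0 of the 9 members, and in PIAS4 and LRRC47. The part of these words in the values was not tested.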

How the data were processed

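The deposited table gave FPKM, per the file headers, for 2 shCtrl and 2 shTBX3 libraries. RSEM, Bowtie2, HISAT and hg19 appear in the submitters' processing notes without version or role. Strandedness is not given in the sources used here. Because such values are no counts, genes reaching an FPKM of 1 in 2 or more libraries were fitted by limma (version 3.58.1, R 4.3.3) on the log2(FPKM + 1) scale (eBayes with trend, two-sided, Benjamini-Hochberg over all genes tested, threshold 0.05), with 2 residual and 4.11 prior degrees of freedom. The script was checked on simulated data. Fold changes are on the log2(FPKM + 1) scale, which understates those of low genes, and ratios are of mean FPKM. No pair of libraries shared the same value in more than 0.560% of genes.

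The members and gene lists were chosen with earlier results of these data known. Beside the members, TBX3, PSMB5, PSMB6, PSMB7, NLRC5, IRF1, TAPBPL, CALR, CANX, PDIA3 and ERAP1, the genes named are those called in a list, the largest rise and fall of each list with a mean FPKM of at least 5, and the 5 genes most like TAPBP. ZBTB22, DAXX, CDX2, PTPRC and the thyroid and class II genes given by level were named after their values were seen. A gene that the rule also names is not reported here.

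Depth was estimated from the whole steps of microRNA FPKM: between 85.1% and 86.2% of values up to 6 fragments came out whole within 0.05 fragments, with lengths from GENCODE 44. Fragments per member use the length of the canonical transcript and are approximate. Their errors cover counting only. Alternatives, 13 planned and 1 (protein-coding genes only) added after seeing the data, were other pseudocounts, filters, scalings, eBayes settings, a replicate block and each library left out. Python 3.11.15 was used for the rest.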

Additional observations from a re-analysis of the deposited data

How the results depend on the processing

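Under the 14 alternatives TAPBP stayed lower, with log2 fold changes from −1.10 to −1.06, and it was called in 7. With all libraries kept, its limma adjusted p-values ran from 0.0175 to 0.122. The alternatives reuse the same libraries and the value that chose the list, so this is a description and no support. The call was lost with a pseudocount of 0.1 (−1.09, adjusted p = 0.0634), with no filter on low values (−1.08, 0.122) and with no intensity trend (−1.08, 0.0786), which left 0 members called in each. It was also lost on leaving out any library (−1.10 to −1.07, 0 members called each time), where the lone library of a group is assumed to vary like the other group. The other 8 members were called under none of the 14, and their direction held except for TAP2, at −0.36 to 0.01 over the libraries left out. Genes called, 25 as reported, numbered 7 with a pseudocount of 0.1, 0 with no filter, and 12 (without shTBX3 replicate 1) to 55 (without shCtrl replicate 1) with a library left out. With the replicate number as a block, 132 genes were called, 34 higher and 98 lower. The labels do not pair the samples, and the correlation of replicate differences between groups was 0.26 over genes. Values near 0 changed sign: CALR was 0.00 with median ratio scaling and ERAP1 0.00 with quantile normalization. With a library left out the ranges were −0.14 to 0.07 for PSMB5, −0.23 to 0.20 for CALR, −0.06 to 0.11 for CANX, −0.19 to 0.09 for ERAP1, −0.18 to 0.24 for POMP, −0.01 to 0.16 for IFNAR1, −0.00 to 0.14 for LYZ and −0.14 to 0.80 for KRT20. The cause was not tested. Counting error per library was largest for PSMB9, 6.4% to 10.0%, below the 1.78-fold gap between its shTBX3 libraries.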
